A study of Mus musculus with 15 samples.

Results

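The AP-1 transcription factors of mouse skin were followed across a model of actinic keratosis, the keratinocyte lesion that precedes squamous cell carcinoma. The family was taken as 10 genes by symbol, Fos, Fosb, Fosl1, Fosl2, Jun, Junb, Jund, Atf3, Maff and Batf, and all 10 were found among the 24027 gene symbols that the 4 deposited tables have in common. The mice were females of the hairless SKH1 strain, 6 to 8 weeks old, given 500 J/m2 of ultraviolet B (UVB) on 5 days a week for 10 weeks, and their skin was profiled by RNA-seq. The 5 groups hold 3 libraries each: lesional skin of mice that received 0.25 g of topical GZ21T on 5 days a week, and 4 sites of mice that received the same amount of placebo cream, namely lesions, the skin around them (perilesional), non-lesional skin, read here as irradiated because a separate site is labelled unexposed, and skin not exposed to UV (non-UV). What the GZ21T cream contains is not given in the labels. The file headers name a back group and no non-UV group, and back was taken as the non-UV group by elimination. A difference of body site therefore cannot be told apart from that of exposure wherever this group is used. The labels give strain, sex and the irradiation course alike for all 5 groups, the non-UV one included, and number the placebo libraries Control 1 to 3 at each of the 4 sites, so these may come from the same 3 mice. The source is given as skin with no sorting of cells, and GZ21T was followed in lesions only.

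AP-1 is a dimer of basic leucine zipper (bZIP) proteins that binds the DNA letters TGANTCA, and Jun proteins pair with themselves, with Fos proteins or with Atf and Batf proteins. Fos, Fosb, Junb, Atf3 and Maff are immediate-early or stress-induced genes whose mRNA appears and decays quickly after growth factors, ultraviolet light or wounding, while Jund is made more steadily. In skin AP-1 acts in keratinocyte proliferation, differentiation and the ultraviolet response, and mouse skin papillomas are known to need Fos to progress to carcinoma. Small Maf proteins such as Maff lack an activation domain and act as partners of other bZIP proteins, and Batf is known mainly from T cells, B cells and dendritic cells.

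The promoters of Fosb, Atf3, Fos and Junb are shown because Fosb, Atf3 and Fos are the 3 members whose level was highest in unexposed skin, and Junb is the 1 member lowest there. RefSeq promoter entries on GRCm38.p6 were found for 9 of the 10 members, and none for Fosl1. Each line gives the 250 bases before the RefSeq start, 5′ to 3′ on the gene's own strand, with TGACG on either strand in capitals, the core of the site that CREB and ATF factors bind. The Fosb stretch is chr7:19310046-19310295, minus strand, and that of Atf3 is chr1:191183334-191183583, minus strand, inside the annotated Atf3 gene, which has a further start upstream. That of Fos is chr12:85473640-85473889, plus strand, and that of Junb is chr8:84978749-84978998, minus strand.
Fosb: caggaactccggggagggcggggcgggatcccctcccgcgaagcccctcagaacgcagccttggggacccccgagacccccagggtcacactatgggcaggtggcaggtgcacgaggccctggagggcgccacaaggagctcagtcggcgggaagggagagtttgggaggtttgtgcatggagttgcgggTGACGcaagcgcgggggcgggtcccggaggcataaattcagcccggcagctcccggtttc
Atf3: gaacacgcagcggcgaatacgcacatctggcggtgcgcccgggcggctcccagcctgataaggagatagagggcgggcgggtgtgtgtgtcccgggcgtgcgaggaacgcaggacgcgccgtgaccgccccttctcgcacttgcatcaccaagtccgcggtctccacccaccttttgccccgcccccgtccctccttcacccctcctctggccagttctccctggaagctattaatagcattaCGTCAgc
Fos: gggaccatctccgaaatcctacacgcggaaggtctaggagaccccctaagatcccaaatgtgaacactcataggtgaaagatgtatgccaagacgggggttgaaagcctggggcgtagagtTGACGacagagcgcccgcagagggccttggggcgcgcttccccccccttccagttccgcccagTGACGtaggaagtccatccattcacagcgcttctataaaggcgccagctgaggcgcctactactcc
Junb: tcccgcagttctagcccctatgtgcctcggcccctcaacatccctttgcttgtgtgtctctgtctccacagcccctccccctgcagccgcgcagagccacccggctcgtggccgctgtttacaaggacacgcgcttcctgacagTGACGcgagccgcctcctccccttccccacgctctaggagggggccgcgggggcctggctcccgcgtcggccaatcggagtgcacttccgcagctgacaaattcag
All 4 stretches hold TGACG, at 60 to 56 bases before the start in Fosb, 7 to 3 in Atf3 on the opposite strand, 106 to 102 in Junb, and at both 129 to 125 and 66 to 62 in Fos. Of the 9 members with an entry 6 hold these letters, those shown and Batf and Maff, and so do 17.8% of all 32851 promoter entries. Here and below a member counts where any of its entries matches, and Maff has 3, while the background counts single entries. The shares of members and of entries are therefore not in the same unit. The AP-1 letters TGANTCA were found in 0 of the 9 on either strand, against 6.75% of all entries. The full site TGACGTCA, which contains TGACG on both strands, was found in 1, at 1 of the 3 Maff entries, against 1.55%. The CArG box, to which serum response factor binds, was found in 0 of the 9 and in 1.47% of all. These matches describe letters in these windows alone. Annotated exons cover 7 bases of the Atf3 stretch and up to 6 of the Fosb stretch, so the Atf3 match may lie in transcribed sequence.

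The deposited tables hold log2 fold changes and test results and no values per library, so the level of a gene in each library, its depth and its spread within a group cannot be shown, and levels of different genes cannot be compared. Each value below is a log2 fold change with its standard error (SE), and a gene is called changed where the adjusted p is under 0.05 over all genes tested in that comparison. The labels do not say outright that libraries of a group came from separate mice, so the p-values rest on the spread among 3 libraries, part of which may be technical. In bulk skin, fewer cells that express a gene and less of its RNA per cell cannot be told apart. Keratinocyte markers could be read only by presence: all 7 basal markers and 6 of 7 suprabasal markers had fold changes and were tested in every comparison. The listed fibroblast, endothelial and skeletal muscle markers were likewise all tested, so presence does not identify the tissue. Of the members, 10 were tested in every comparison except GZ21T over placebo lesions, where Maff and Batf have no adjusted p and 8 were tested.

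Relative to unexposed skin, the members differed in the range of their levels over the groups. The difference between the highest and the lowest of the 5 groups was 4.57 on the log2 scale for Fosb, 3.48 for Fosl1, 3.23 for Atf3, 2.56 for Batf and 2.05 for Fos. It was 1.57 for Junb, 1.07 for Maff, 0.87 for Jund, 0.58 for Jun and 0.22 for Fosl2. In the 5 groups, GZ21T lesions held the lowest value of 5 members and the highest of 0, while placebo lesions held the highest value of 3 members and the lowest of 0. Some gaps were small: GZ21T lesional and non-lesional skin stood at -3.23 and -3.21 for Atf3 and at -0.26 and -0.24 for Jun. For Fosb they stood at -4.57 and -3.98, and for Jund at -0.68 and -0.33. These orders were not tested, and the same count over all genes was not made. Non-UV skin was highest for Fos, Fosb and Atf3 and lowest for Junb.

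**Figure D1:**
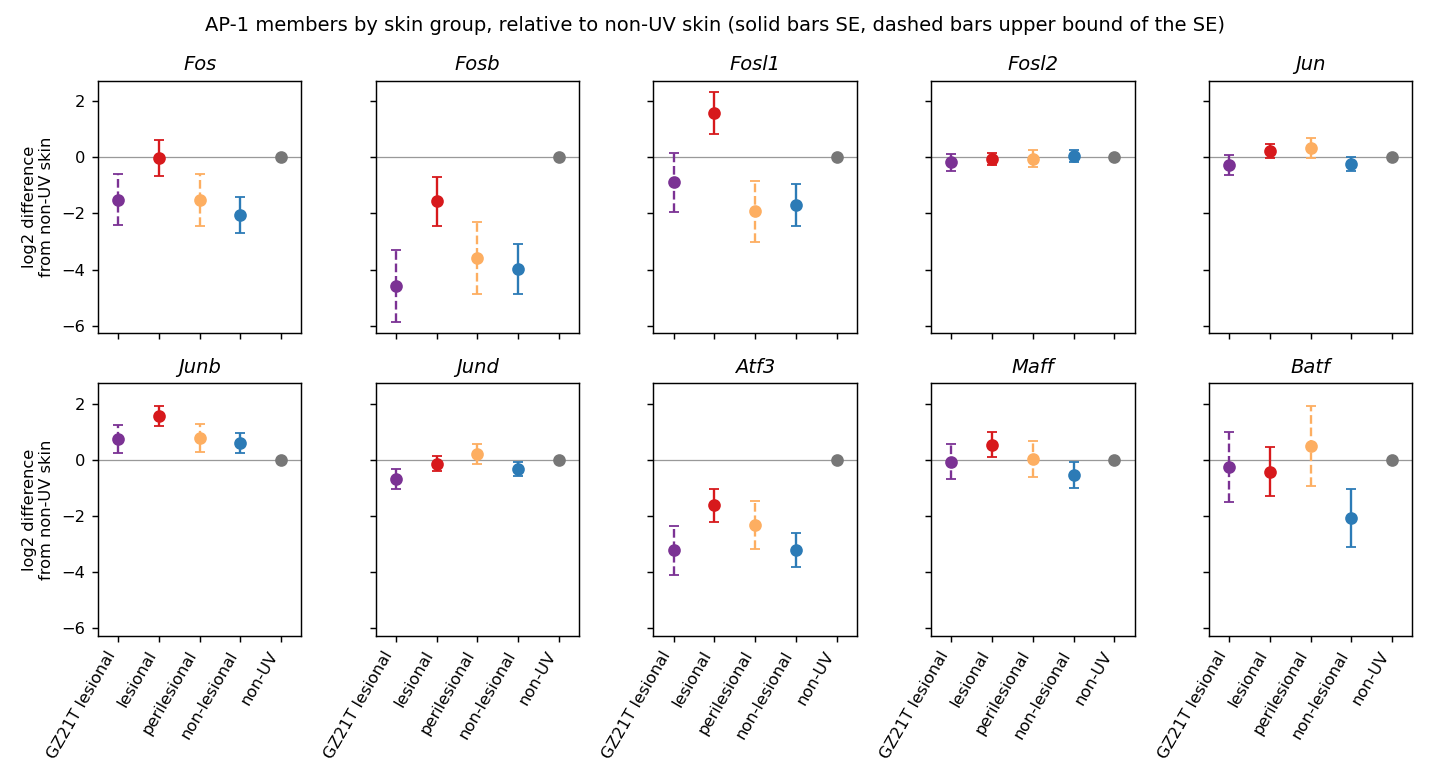
Log2 difference of each AP-1 member from non-UV skin (vertical axis) in the 5 skin groups (horizontal axis). Solid bars are SEs, dashed bars are upper bounds of the SE where the tables do not give it, and non-UV skin is 0 by definition; Fosb and Atf3 lie below 0 in all 4 other groups, while Fosl1 is above 0 in placebo lesions alone.

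In non-lesional skin, Fosb and Atf3 were lower than in unexposed skin. These were 2 of 10 members called lower and 0 higher, against 0.531% of 14124 genes called lower, 1.13% called higher and 1.66% called in either direction. The median over the members was -1.12, against -0.02 over all genes tested, and 5 of the 10 had an unadjusted p under 0.05, as did 10.02% of all genes. Perilesional over non-lesional skin gave 0 of 10 members called by the authors' DESeq2 test, against 0.112% of 15201 genes (0.0921% higher and 0.0197% lower), with 3 members at an unadjusted p under 0.05 and a median of 0.52, against 0.03 over all genes. Fosl1 was higher in lesions than in perilesional skin and was the 1 member of 10 called there, with 4 at an unadjusted p under 0.05. Of all 15187 genes in that contrast 0.309% were called higher, 0.224% lower and 0.533% in either direction, 47 higher and 34 lower, or 35 higher and 43 lower after centring on the median. The median of the members was 0.61, against 0.05 over all genes.

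In lesional over unexposed skin Junb was higher and Atf3 lower, 2 of 10 members, against 18.3% of 15201 genes called, so the share of members called was near that of all genes. Among all genes 10.2% were called higher and 8.17% lower, 1543 and 1242, and these became 1244 and 1607 after centring on the median. In GZ21T lesions Fosb and Fosl1 were lower than in placebo lesions, 2 of the 8 members tested, against 2.29% of 10899 genes called lower, 1.31% higher and 3.61% in either direction. Over all genes 143 were called higher and 250 lower, or 201 and 142 after centring. With p-values adjusted over all genes that have one, without the authors' filter on low counts, neither Fosb nor Fosl1 was called there (adjusted p = 0.068 and 0.065), nor with the spread of the null distribution estimated from all genes (0.98 for both). The median of all 10 members was -0.72, against -0.06 over all genes tested, with 9 of 10 values negative and 6 at an unadjusted p under 0.05, as were 22.9% of all genes. No difference of GZ21T lesions from placebo non-lesional skin was detectable in any member: the derived Wald test called 0 of 10, with 0 at an unadjusted p under 0.05, against 0% of 15187 genes called and 3.31% at an unadjusted p under 0.05. The comparisons share groups and so are not independent of each other.

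**Figure D2:**
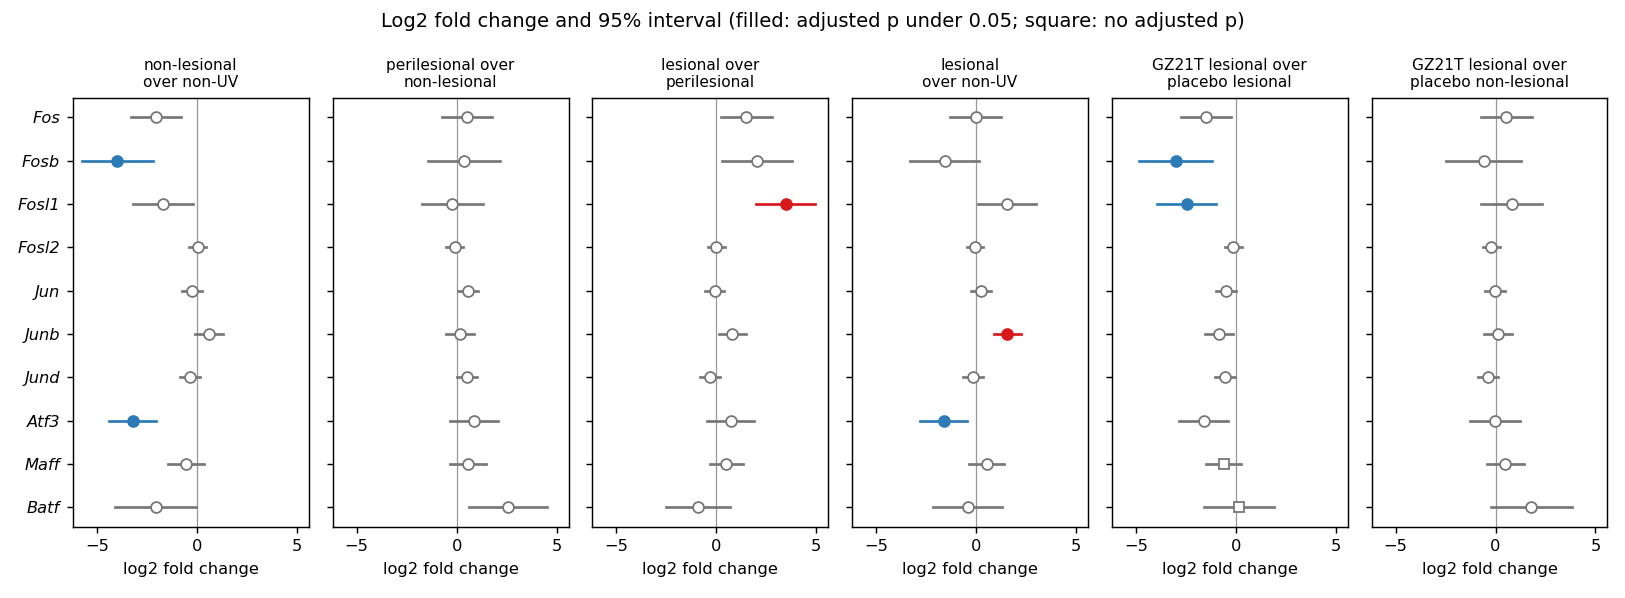
Log2 fold change (horizontal axis) of the 10 AP-1 members (rows) in 6 comparisons (panels), with 95% intervals. Filled red points are called higher and filled blue points lower at an adjusted p under 0.05; these are Fosb and Atf3 in the first panel, Fosl1 in the third, Junb and Atf3 in the fourth and Fosb and Fosl1 in the fifth, the last 2 of which are not called when p-values are adjusted without the filter on low counts.

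Fosb encodes FosB, a Fos protein whose mRNA is among the fastest to respond to stimulation, and lies on chromosome 7 from 19302696 to 19310051, minus strand, of GRCm38. It had the widest range of the family. Its level in non-lesional skin was 15.8-fold lower than in non-UV skin, -3.98 ± 0.90 in the authors' deposited table (SE, adjusted p = 0.0022), and the adjusted p ranged from 0.0018 to 0.011 over 4 alternatives. Perilesional and non-lesional skin did not differ detectably, at 0.39 ± 0.91 (adjusted p = 0.96, from the authors' deposited table), with a 95% interval of -1.41 to 2.18. In lesions the gene stood at 2.02 ± 0.89 over perilesional skin (adjusted p = 0.38) and, by the authors' deposited table, at -1.57 ± 0.88 over non-UV skin (adjusted p = 0.21). GZ21T lesions were 8.02-fold below placebo lesions, at -3.0 ± 0.93 (adjusted p = 0.042, from the authors' deposited table), a call that the filter on low counts decides as given above. They stood at -0.59 ± 0.95 over placebo non-lesional skin (adjusted p = 1.0). From low to high the order of its levels was GZ21T lesional, non-lesional, perilesional, lesional and non-UV skin, and no neighbours in that order differed at an adjusted p under 0.05.

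Fos, the founding member of the family, lies on chromosome 12 from 85473890 to 85477273, plus strand. It was called in 0 of the 6 comparisons, with unadjusted p-values under 0.05 in 3 of them. The authors' deposited table gives -2.05 ± 0.65 for non-lesional over non-UV skin (adjusted p = 0.076), with a 95% interval of -3.32 to -0.78. Placebo lesions and non-UV skin stood level, at -0.02 ± 0.64 (adjusted p = 0.99, from the authors' deposited table), while lesions stood at 1.5 ± 0.64 over perilesional skin (adjusted p = 0.35). GZ21T over placebo lesions was -1.5 ± 0.65 (adjusted p = 0.14, from the authors' deposited table). Non-lesional, perilesional and GZ21T lesional skin held its 3 lowest levels, at -2.05, -1.52 and -1.52 relative to non-UV skin, and placebo lesions and non-UV skin its highest.

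Fosl1 encodes Fra-1, a Fos protein without the transactivation domain of Fos that is raised by sustained ERK signalling and in many carcinomas. The gene lies on chromosome 19 from 5447547 to 5455946, plus strand. It had the largest fold change of the family in lesional over perilesional skin, 11.2-fold higher in lesions, at 3.48 ± 0.75 (adjusted p = 0.0035). The adjusted p ranged from 0.0028 to 0.058 over 5 alternatives, the highest with the spread of the null distribution estimated from all genes, where it was no longer called. Relative to non-lesional skin, lesions stood at 3.27, with an upper bound of 1.06 on the SE and no test. By the authors' deposited table lesions stood at 1.57 ± 0.74 over non-UV skin (adjusted p = 0.12), and non-lesional over non-UV skin was -1.70 ± 0.76 (adjusted p = 0.37). GZ21T lesions were 5.51-fold below placebo lesions, at -2.46 ± 0.75 (adjusted p = 0.041, from the authors' deposited table), again with the limit given above. GZ21T lesions over placebo non-lesional skin gave 0.81 ± 0.77 (adjusted p = 1.0), with a 95% interval of -0.70 to 2.31. From low to high its order was perilesional, non-lesional, GZ21T lesional, non-UV and placebo lesional skin. The neighbours with a test in that order did not differ at an adjusted p under 0.05, and GZ21T lesional and non-UV skin, 0.90 apart with an upper bound of 1.05 on the SE, have none.

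Fosl1 overlaps the gene Ccdc85b on the opposite strand in GENCODE M21, and Junb likewise overlaps Prdx2, a peroxiredoxin gene. The kit keeps strand, but whether reads were counted by strand is not given in the sources used here, so reads of overlapping genes may not be told apart. Ccdc85b stood at -0.08 ± 0.27 in lesional over perilesional skin (adjusted p = 0.97) and, by the authors' deposited table, at 0.23 ± 0.28 in GZ21T over placebo lesions (adjusted p = 0.67). Prdx2 was higher in lesional over non-UV skin by the authors' deposited table, at 0.51 ± 0.17 (adjusted p = 0.025).

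Fosl2, which encodes Fra-2, the remaining Fos protein, was the most even member. Its fold changes lay between -0.22 and 0.04 over the 6 comparisons, with SEs of 0.21. The largest departure was GZ21T lesions over placebo non-lesional skin, at -0.22 ± 0.21 (adjusted p = 1.0), with a 95% interval of -0.63 to 0.20. Those SEs were the smallest of the family in each comparison, against 0.88 to 0.95 for Fosb.

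Of the Jun genes, which supply the partner of every Fos protein, Junb alone was called. It lies on chromosome 8 from 84974484 to 84978718, minus strand. By the authors' deposited table Junb was 2.97-fold higher in lesional than in non-UV skin, at 1.57 ± 0.35 (adjusted p = 0.00035), with an adjusted p of 0.82 with the null spread estimated from all genes and a range from 0.00026 to 0.82 over 4 alternatives. Non-lesional over non-UV skin gave 0.60 ± 0.35 (adjusted p = 0.61, from the authors' deposited table), and lesional over perilesional skin gave 0.80 ± 0.35 (adjusted p = 0.37). GZ21T over placebo lesions gave -0.85 ± 0.35 (adjusted p = 0.12, from the authors' deposited table). GZ21T lesions stood at 0.12 ± 0.35 over placebo non-lesional skin, with a 95% interval of -0.58 to 0.81. Junb was the 1 member lowest in unexposed skin and highest in placebo lesions, with non-lesional, GZ21T lesional and perilesional skin close together between them at 0.60, 0.72 and 0.77 relative to non-UV skin.

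Jun, the founding Jun gene, and Jund, which is known to restrain growth in fibroblasts, had small fold changes and no call. In the authors' deposited table both had their highest values in perilesional over non-lesional skin, Jun at 0.57 ± 0.25 (adjusted p = 0.55) and Jund at 0.52 ± 0.25 (adjusted p = 0.61). In GZ21T over placebo lesions both were negative by the authors' deposited table, Jun at -0.49 ± 0.25 (adjusted p = 0.22) and Jund at -0.55 ± 0.26 (adjusted p = 0.17). Their other fold changes lay between -0.36 and 0.23. In GENCODE M21 each has an antisense gene on the opposite strand, Junos and Gm11175, neither of which is listed in the tables.

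Atf3 encodes a stress-induced repressor or activator that pairs with Jun proteins, and lies on chromosome 1 from 191170296 to 191218039, minus strand. Non-lesional skin had 9.28-fold less of it than non-UV skin, at -3.21 ± 0.61 (adjusted p = 5.9e-05, from the authors' deposited table), with a range of 4.5e-05 to 0.00057 over 4 alternatives. In lesions it was also lower than in non-UV skin, 3.08-fold, at -1.62 ± 0.59 (adjusted p = 0.038, from the authors' deposited table), but its adjusted p was 0.95 with that estimated null spread, in a range of 0.027 to 0.95. Perilesional over non-lesional skin gave 0.88 ± 0.61 (adjusted p = 0.80) and GZ21T over placebo lesions gave -1.61 ± 0.62 (adjusted p = 0.098, from the authors' deposited table). Lesional over perilesional skin gave 0.71 ± 0.60 (adjusted p = 0.74). GZ21T lesions and placebo non-lesional skin stood nearly level, at -0.02 ± 0.64, with a 95% interval of -1.26 to 1.23. Its order from low to high was that of Fosb, and placebo lesional and non-UV skin were the neighbours that differed.

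Maff and Batf were called in none of the 5 comparisons in which they have an adjusted p. Maff lay between -0.59 and 0.57, with SEs of 0.43 to 0.47. Its lowest value, in GZ21T over placebo lesions, has no adjusted p in the authors' deposited table. Batf had SEs of 0.82 to 1.05. In the authors' deposited table it stood at 2.56 ± 0.99 in perilesional over non-lesional skin (adjusted p = 0.44), with a 95% interval of 0.61 to 4.5, and at -2.06 ± 1.03 when non-lesional is set against non-UV skin (adjusted p = 0.48). Both values rest on the same non-lesional libraries, with opposite sign. In GZ21T over placebo lesions it was the 1 member above 0, at 0.17 ± 0.89 in the authors' deposited table.

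The genes whose 4 deposited fold changes lay nearest to those of each member were found among 10898 genes tested in all tables, by Euclidean distance on the log2 scale. Most genes had small fold changes, so the median distance of all genes follows the size of a member's own fold changes. A distance below that median is therefore no measure of how unusual a likeness is. Another member of the family was the nearest gene to Fosb: Atf3, at a distance of 1.67, followed by Nr4a1, an orphan nuclear receptor of the immediate-early class, at 2.48, where the median distance of all genes was 5.26. For Atf3 the nearest were Nr4a1 at 1.17, Gp49a at 1.53 and Lhfpl2 at 1.57, against a median of 4.09, and Fosb ranked 6 of all genes. The nearest to Fos were Selenbp1 at 0.58, the MAP kinase phosphatase gene Dusp1 at 0.71 and Basp1 at 0.98, against a median of 2.67.

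Fosl1 lay nearest to Cyr61, a matrix protein gene of the immediate-early class, at 1.01, to Epgn, an EGF receptor ligand, at 1.38 and to Arc at 1.44, against a median of 3.40. Junb lay nearest to Fam162a at 0.16, the cornified envelope transglutaminase Tgm1 at 0.17 and the asparagine synthetase Asns at 0.18, against 1.91. Jun lay nearest to Esyt1, Gprc5b and Unc119b at 0.11 to 0.12 (median 1.06), Jund to Tmem254b, 1190002N15Rik and Pvrl2 at 0.13 to 0.19 (median 1.09), and Fosl2 to Mbnl1, Krtcap3 and Foxk1 at 0.05 to 0.07 (median 0.72). Distances for members with small fold changes are small by construction. Maff and Batf were not tested in all tables and have no such list.

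Other immediate-early genes were read from a list of 27 symbols, of which 25 are in the tables. In non-lesional over non-UV skin 2 of 25 tested were lower and 0 higher, with a median of -0.05, against 0.531% of all genes lower: by the authors' deposited table Nr4a2, a further orphan nuclear receptor, stood at -2.23 ± 0.57 (adjusted p = 0.011) and Dusp1 at -1.68 ± 0.47 (adjusted p = 0.03). Egr1, a zinc finger factor of the same class, stood at -0.15 ± 0.42 there, and Ier2 at -0.04 ± 0.30, both chosen after their values were seen. Of the 25, 6 had an unadjusted p under 0.05. With the estimated null spread Dusp1 was no longer called (adjusted p = 0.088).

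In lesional over perilesional skin 2 of the 25 were higher and 0 lower, against 0.309% of all genes higher, with a median of 0.56 beside that of 0.05 over all genes: Arc at 2.76 ± 0.63 (adjusted p = 0.006) and Cyr61 at 2.28 ± 0.57 (adjusted p = 0.025). Neither was called with the estimated null spread (adjusted p = 0.080 for Arc and 0.21 for Cyr61). In lesional over non-UV skin 7 of 25 were higher and 0 lower, against 10.2% and 8.17% of all genes, with a median of 0.65 beside 0.08, led in the authors' deposited table by Klf10, a zinc finger factor, at 1.26 ± 0.26 (adjusted p = 9.2e-05), Ier3 at 2.0 ± 0.48 (adjusted p = 0.00099), Arc at 2.32 ± 0.63 (adjusted p = 0.0038) and Myc at 0.92 ± 0.28 (adjusted p = 0.0093). In GZ21T over placebo lesions 3 of the 20 tested were lower and 0 higher, against 2.29% and 1.31% of all genes, with a median of -0.56 beside -0.06: Cyr61 at -2.51 ± 0.58 (adjusted p = 0.0065), Ier3 at -2.03 ± 0.48 (adjusted p = 0.0081) and Klf6 at -0.94 ± 0.26 (adjusted p = 0.024, from the authors' deposited table). In perilesional over non-lesional skin 0 of 25 were called by the authors' DESeq2 test, with 2 at an unadjusted p under 0.05, and in GZ21T lesions over placebo non-lesional skin 0 by the derived Wald test, with 1.

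**Figure D3:**
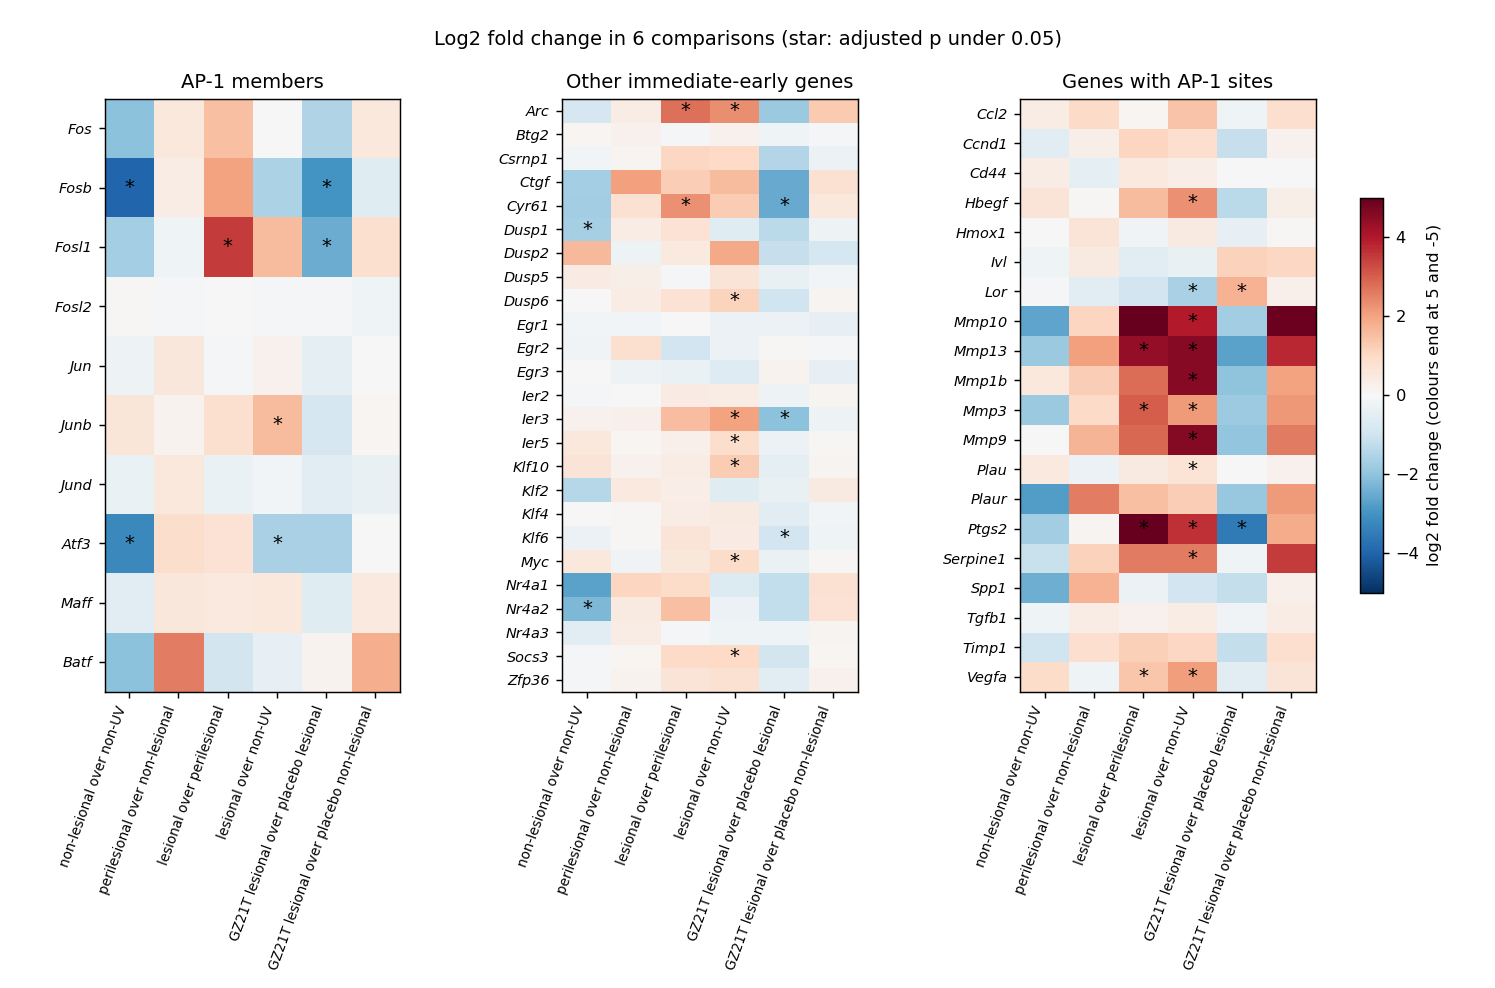
Log2 fold change (colour, ending at 5 and -5) of the AP-1 members, other immediate-early genes and genes with AP-1 sites (rows) in 6 comparisons (columns); stars mark an adjusted p under 0.05. In lesional over non-UV skin 7 of 25 immediate-early genes and 10 of 20 genes with AP-1 sites are starred higher. Of the AP-1 members Junb is starred higher and Atf3 lower there, while Fos, Fosb and Fosl1 are not starred. With the null spread estimated from all genes, 0 of the stars in that column remain.

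Genes with textbook AP-1 sites were read from a list of 22, of which 20 were tested in most comparisons. In lesional over perilesional skin 4 of 20 were higher and 0 lower, against 0.309% and 0.224% of all genes, with a median of 1.29 beside 0.05 over all genes. These were Ptgs2, the inducible cyclooxygenase, at 5.24 ± 1.01 (adjusted p = 0.0011), the stromelysin Mmp3 at 3.02 ± 0.76 (adjusted p = 0.025), the collagenase Mmp13 at 4.39 ± 1.16 (adjusted p = 0.038) and the vessel growth factor Vegfa at 1.38 ± 0.38 (adjusted p = 0.045). With the largest of the 3 deposited SEs Mmp13 (adjusted p = 0.052) and Vegfa (adjusted p = 0.059) were no longer called, nor was Vegfa after centring on the median (adjusted p = 0.061). With the estimated null spread Ptgs2 remained called (adjusted p = 0.037), while Mmp3 (adjusted p = 0.21), Mmp13 (adjusted p = 0.26) and Vegfa (adjusted p = 0.28) did not. In lesional over non-UV skin 10 of 20 were higher and 1 lower, with a median of 1.33 beside 0.08, against 10.2% of all genes higher and 8.17% lower. There the authors' deposited table gives Mmp9, a gelatinase, 4.6 ± 1.04 (adjusted p = 0.00038) and Hbegf, an EGF receptor ligand, 2.30 ± 0.57 (adjusted p = 0.0013), while Lor, the cornified envelope protein loricrin, was the 1 lower at -1.61 ± 0.49 (adjusted p = 0.011).

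In GZ21T over placebo lesions 1 of the 15 tested was lower and 1 higher, against 2.29% and 1.31% of all genes, with a median of -0.52 beside -0.06: by the authors' deposited table Ptgs2 stood at -3.53 ± 1.0 (adjusted p = 0.029) and Lor at 1.76 ± 0.49 (adjusted p = 0.026). With the estimated null spread 0 of the genes of these lists stayed called in GZ21T over placebo lesions or in lesional over non-UV skin. In the remaining 3 comparisons 0 of 20 were called by the authors' DESeq2 test or, for the last, the derived Wald test. The median was -0.21 for non-lesional skin set against non-UV skin, with 5 genes at an unadjusted p under 0.05, 0.74 in perilesional over non-lesional skin, with 3, and 0.85 in GZ21T lesions over placebo non-lesional skin, with 5.

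Of 18 other bZIP genes 3 were higher and 2 lower in lesional over non-UV skin, against 10.2% and 8.17% of all genes. By the authors' deposited table Atf4, a factor of the integrated stress response, stood there at 0.73 ± 0.26 (adjusted p = 0.033), Maf at -0.53 ± 0.16 (adjusted p = 0.0074) and Atf7 at -0.65 ± 0.24 (adjusted p = 0.036). After centring on the median Atf4 was no longer called (adjusted p = 0.061). In non-lesional over non-UV skin 1 of the 16 tested was higher and 0 lower by the authors' DESeq2 test, with 3 at an unadjusted p under 0.05. Of all genes 1.13% were called higher and 0.531% lower there, and the 1 call remained under each alternative. In perilesional over non-lesional skin and GZ21T over placebo lesions 0 were called by the authors' DESeq2 test, with 1 of the list at an unadjusted p under 0.05 in each. The derived Wald test likewise called 0 in lesional over perilesional skin, with 1 at that level, and 0 in GZ21T lesions over placebo non-lesional skin, with 2.

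Markers of other cell types also differed in some of these comparisons, and their counts are given beside the share of all genes called. In non-lesional over non-UV skin, where Fosb and Atf3 fell, 1 of 8 macrophage markers was lower and 0 higher, with a median of -0.65, while the medians were -0.87 for 6 fibroblast, -1.41 for 6 hair follicle, -1.40 for 5 adipocyte and 1.42 for 5 skeletal muscle markers, with 0 called in each of these 4 lists. Of 9 T and NK cell markers 2 were higher and 0 lower there, and of 2 neutrophil markers tested Cxcr2 was higher, at 1.84 ± 0.50 (adjusted p = 0.023), while Csf3r stood at -3.29 ± 1.14 (adjusted p = 0.13), both from the authors' deposited table. By the authors' DESeq2 test 1 of 7 basal keratinocyte markers was lower, Krt15 at -2.00 ± 0.46. Of 6 suprabasal markers 1 was higher, Dsc1 at 1.61 ± 0.28. Of 4 red blood cell markers Hba-a2 was lower at -30.3, a size that arises where a group has no reads. Of 5 endothelial markers 0 were called. Of all genes 1.13% were called higher and 0.531% lower there. In lesional over perilesional skin, where Fosl1 rose, 0 were called among 5 endothelial, 6 hair follicle, 3 red blood cell and 8 macrophage markers tested, with medians of 1.14, 3.15, 4.68 and 0.03. Among 9 T and NK cell and 6 suprabasal keratinocyte markers 0 were called, with every value negative and medians of -0.76 and -0.88. Nor were any called among 7 basal keratinocyte, 3 neutrophil, 6 fibroblast, 5 skeletal muscle and 5 adipocyte markers. Their medians were 0.47, 0.35, 0.14, -0.43 and -0.53. Of all genes 0.309% were called higher and 0.224% lower in that contrast. In lesional over non-UV skin, where Junb rose and Atf3 fell, 2 of 5 endothelial markers were higher, and by the authors' deposited table these were Kdr at 3.73 ± 1.13 (adjusted p = 0.01) and Pecam1 at 2.50 ± 0.96 (adjusted p = 0.049). There 1 of 4 red blood cell, 1 of 3 neutrophil and 1 of 5 adipocyte markers were also higher and 0 lower, with medians of 3.14, 0.59 and -1.51. Of 9 T and NK cell markers 2 were higher and 2 lower, of 7 basal and of 6 suprabasal keratinocyte markers 1 was higher and 2 lower in each, and of 8 macrophage, 6 fibroblast, 5 skeletal muscle and 6 hair follicle markers 0 were called, with medians of 0.08, 0.83, 1.51 and -2.36. Of all genes 10.2% were called higher and 8.17% lower in that comparison. In lists this short 1 call is therefore not a result about the cell type. In GZ21T over placebo lesions 3 of 6 suprabasal keratinocyte markers were higher with a median of 1.22, and 0 of 8 macrophage markers were called with a median of 0.84. Both red blood cell markers tested were lower by the authors' DESeq2 test, Hba-a1 at -5.33 ± 1.45 and Hba-a2 at -31.2 ± 5.89. The Hba-a2 value is again of a size that arises where a group has no reads. Of all genes 1.31% were called higher and 2.29% lower in GZ21T over placebo lesions. Fold changes do not give the level of a marker in a group. The part of these cell types in the AP-1 values was not tested.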

How the data were processed

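Per the labels' protocols, skin RNA went into stranded total RNA libraries (TruSeq). Trim Galore, DESeq2 and the builds GRCm38 and mm10 are named in the submitters' processing notes; for the aligner, counter, versions and design formula, nothing is stated in the sources used here. Deposited by the authors are 4 tables, each with a log2 fold change, a Wald statistic (a score, the fold change over its SE), a p-value and an adjusted p-value, per the file headers. A two-sided normal tail of the statistic returns the deposited p-values within 9.9e-13 in natural log. Depth per library is unknown, and the number of per-library columns left unused is 0.

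After 25 symbols turned into dates were removed, 24027 were shared. The SE was computed as fold change over statistic. The table that sets placebo over GZ21T lesions was reversed in sign: of 1003 genes without reads in lesional and non-UV skin, 253 are positive and 0 negative after turning. The table whose file is named for perilesional and lesional skin was used as lesional over back skin, as its header says: of 1423 genes without reads in non-lesional and back skin, 704 are positive and 0 negative in it. Back was taken as the non-UV group by elimination. The same 28 genes lack a p-value in all 4 tables, and a single fit was assumed.

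Lesional over perilesional and GZ21T lesional over placebo non-lesional skin were each derived as a signed sum of 3 deposited fold changes, with a variance from the 3 squared SEs that is exact if the model holds the group alone, a normal tail and Benjamini-Hochberg adjustment over 15187 genes with an adjusted p in any of the 3 tables. For the 3 remaining pairs of groups the tables bound the SE and give no test. The plan worded this adjustment as over all genes with a value; that version is the alternative without the filter on low counts and gives the same member calls. The derivation was run on simulated, independent group estimates that have the single fit and the group-alone model built in. That run checks the arithmetic and cannot test those assumptions. Python 3.11.15, pandas 2.3.3 and scipy 1.17.1 were used.

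The members and the gene lists were chosen with earlier results of these data known. Named genes are all members, up to 4 called genes of each list with the smallest adjusted p, and the 3 nearest genes of each member; some genes that this rule names are not reported here. Lists are given as counts and medians with no test. Alternatives were adjustment without the filter on low counts, adjustment over the 10899 genes tested in all tables, a null spread from the genes, centring on the median and, for derived contrasts, the largest of the 3 SEs. The same alternatives for the gene lists were added after seeing the data.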

Additional observations from a re-analysis of the deposited data

How the results depend on the processing

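Of 244 values of single members under the alternatives, 237 kept their direction and their side of the threshold, 7 kept their direction and were no longer called, and 0 changed sign. With the null spread estimated from all genes, 0 members were called higher in lesional over perilesional skin, 0 higher and 0 lower in lesional over non-UV skin, and 0 lower in GZ21T over placebo lesions, where 4, 3 and 6 members have an unadjusted p under 0.05 in the normal test. That spread was 1.16, 1.92 and 1.65 in these comparisons, and it takes every changed gene as part of the null, so it is wide where many genes changed. Without the filter on low counts 0 members were called lower in GZ21T over placebo lesions, since more genes enter the adjustment. Fosb and Atf3 remained the 2 members called lower in non-lesional over non-UV skin under all 4 alternatives. With that null spread, calls over all genes fell to 99 higher and 28 lower in non-lesional over non-UV skin, 2 and 0 in perilesional over non-lesional, 2 and 10 in lesional over perilesional, 13 and 1 in lesional over non-UV and 0 and 0 in GZ21T over placebo lesions, and stood at 7 and 5 in GZ21T lesional over placebo non-lesional skin. For the gene lists, an alternative chosen after seeing the data, 5 of 6 called genes in GZ21T over placebo lesions, 26 of 28 in lesional over non-UV, 6 of 6 in lesional over perilesional and 3 of 3 in non-lesional over non-UV skin remained called without the filter on low counts. With the estimated null spread 0, 0, 1 and 2 of them remained. No paired analysis was possible because the tables hold no values per library, and leaving out each replicate was not run for the same reason. The unknown depth limits what can be said of Batf, Fosb and Fosl1, whose SEs were 0.74 to 1.05.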

Other observations

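Of the MAP kinase pathway that activates AP-1, 22 of 23 listed kinases and Elk or SRF factors were tested in each comparison, and calls were made in lesional over non-UV skin alone, 2 higher and 2 lower, against 18.3% of all genes. There the authors' deposited table gives Elk3, an Ets factor that partners serum response factor, 2.11 ± 0.39 (adjusted p = 9.5e-06), the ERK kinase gene Map2k1 0.90 ± 0.32 (adjusted p = 0.029), Map3k1 -0.85 ± 0.29 (adjusted p = 0.023) and Elk4 -0.46 ± 0.16 (adjusted p = 0.032). The median of the list was -0.07 in that comparison. In the other 5 comparisons 0 to 4 of the list had an unadjusted p under 0.05.

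Of 10 heat shock genes, a further rapid stress response, 1 was called higher in lesional over non-UV skin, near the 10.2% of all genes called higher there, the chaperonin gene Hspe1 at 0.87 ± 0.25 (adjusted p = 0.0071, from the authors' deposited table). The median of the list there was 0.40. In GZ21T over placebo lesions 1 of 10 was lower, against 2.29% of all genes, Hsp90aa1 at -1.13 ± 0.36 (adjusted p = 0.048, from the authors' deposited table), and the median was -0.35. It was no longer called without the filter on low counts (adjusted p = 0.078) or after centring on the median (adjusted p = 0.065). In non-lesional over non-UV skin, where Fosb and Atf3 fell, 0 of the 10 were called by the authors' DESeq2 test, 0 had an unadjusted p under 0.05, and the median was 0.12.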
